A study of Mus musculus with 4 samples.

Results

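A set of 8 genes was followed that the visceral endoderm, the epithelium covering the early mouse embryo, uses to take up material from its surroundings. They were chosen by name, as the rows of the deposited count table for the endocytic receptor genes Cubn, Amn and Lrp2, the adaptor gene Dab2, and the transport and storage genes Slc39a8, Slc2a2, Soat2 and Npc1l1. The choice was made with earlier results of these data known. These are 8 of 47885 rows in the table, and all 8 were found in it. Each library came from 1 whole embryo of the C57BL/6 background at embryonic day 5.5, and the groups were 2 embryos labelled Mettl14+/+ (WT) and 2 labelled Mettl14-/- (KO). Mettl14 encodes a subunit of the complex that writes N6-methyladenosine on RNA. Per the labels' protocols, the genotype was read from Mettl14 mRNA by qPCR on leftover amplified cDNA, and embryos that expressed the gene became the controls. Heterozygous controls may therefore not be told from homozygous ones, and the allele, its promoter or any Cre line were not given in the sources used here.

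Before the placenta works, the visceral endoderm feeds the embryo by endocytosis at its apical surface. Cubilin, the product of Cubn, has no transmembrane segment and reaches the surface only together with amnionless, the product of Amn. The pair binds intrinsic factor with vitamin B12, apolipoprotein A-I, albumin and transferrin. Megalin, the product of Lrp2, is a giant lipoprotein receptor with many of the same ligands. Dab2 binds short motifs in the tails of these receptors and links them to clathrin. Slc39a8 carries zinc and manganese into cells, and Slc2a2 is the low-affinity glucose carrier of liver, gut and yolk sac. Npc1l1 takes up free cholesterol, and Soat2 esterifies cholesterol for storage or for loading onto lipoproteins. All of them are also used by adult kidney, gut or liver.

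The promoters are shown because most of these genes were highest in the same embryo, and because the factors that mark visceral endoderm (among them HNF4A, FOXA2, GATA4 and GATA6) bind short DNA motifs. RefSeq windows of 300 bases (250 before to 50 after the start of transcription, build GRCm38.p6) were found for 7 of the 8 genes, 9 windows in all, since Dab2 and Slc39a8 have a pair each. Of these, 5 windows are printed 5′ to 3′ on the strand of the gene: those of both subunits of the cubilin receptor, of the adaptor, and of both genes with the lowest levels. Capitals mark matches to any of the 5 motifs searched on either strand.
Cubn (chr2:13491827-13492126, minus strand): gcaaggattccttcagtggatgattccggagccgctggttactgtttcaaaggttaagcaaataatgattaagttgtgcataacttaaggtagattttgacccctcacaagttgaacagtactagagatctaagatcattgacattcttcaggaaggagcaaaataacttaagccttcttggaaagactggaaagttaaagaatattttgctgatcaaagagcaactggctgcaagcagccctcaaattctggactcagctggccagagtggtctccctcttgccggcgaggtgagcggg
Amn (chr12:111270846-111271145, plus strand): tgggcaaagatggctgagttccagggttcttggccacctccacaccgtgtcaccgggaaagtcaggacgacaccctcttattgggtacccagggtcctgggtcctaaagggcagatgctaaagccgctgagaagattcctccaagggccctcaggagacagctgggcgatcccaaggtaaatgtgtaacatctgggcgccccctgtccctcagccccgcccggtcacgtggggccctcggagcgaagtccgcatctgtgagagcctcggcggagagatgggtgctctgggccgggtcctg
Dab2 (chr15:6299539-6299838, plus strand): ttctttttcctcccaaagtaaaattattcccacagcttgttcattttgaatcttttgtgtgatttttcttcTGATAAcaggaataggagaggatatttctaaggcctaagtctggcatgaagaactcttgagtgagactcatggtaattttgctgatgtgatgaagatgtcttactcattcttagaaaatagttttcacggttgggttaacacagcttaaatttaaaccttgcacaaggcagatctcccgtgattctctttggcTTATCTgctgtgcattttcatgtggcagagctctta
Slc2a2 (chr3:28697653-28697952, plus strand): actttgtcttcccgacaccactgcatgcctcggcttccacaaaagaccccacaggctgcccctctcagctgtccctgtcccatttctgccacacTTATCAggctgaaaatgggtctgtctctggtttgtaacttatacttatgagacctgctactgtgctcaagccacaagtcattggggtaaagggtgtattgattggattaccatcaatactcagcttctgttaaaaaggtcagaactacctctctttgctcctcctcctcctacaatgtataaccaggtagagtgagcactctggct
Npc1l1 (chr11:6230196-6230495, minus strand): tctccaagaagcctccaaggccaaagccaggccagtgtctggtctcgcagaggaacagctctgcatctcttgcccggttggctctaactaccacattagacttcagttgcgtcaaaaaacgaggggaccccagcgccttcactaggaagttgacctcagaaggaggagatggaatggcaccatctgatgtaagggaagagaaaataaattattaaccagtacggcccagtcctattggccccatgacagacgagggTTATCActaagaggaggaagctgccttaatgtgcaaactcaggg
The GATA motif (AGATAA or TGATAA) was held by 4 of the 9 windows and by 18.6% of all 32851 windows in the table. In the Dab2 window printed it lay 179 bases before the start and again 14 bases after it, in Slc2a2 156 bases before, and in Npc1l1 6 bases after. The Dab2 window not printed (chr15:6386498-6386797) held no match to any motif searched. A window of Slc39a8 held it 30 bases before the start. No window of the 9 held the HNF4A motif CAAAGTCCA (0.475% of all windows), the FOXA motif TGTTTAC or TATTTAC (6.54%), the SREBP motif TCACNCCAC (1.24%) or the TATA box TATAAA (13.6%). The motifs do not overlap one another in these windows. Both Amn and Lrp2 had windows rich in G and C, 62.3% and 65% against a median of 52.7% over all windows, while the window of Cubn had 44.3%.

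The mature transcripts differ widely in length. Lrp2 (chromosome 2, 69424340 to 69586065, minus strand, mm10) has a longest coding transcript of 15460 bases in 79 exons. Cubn (chromosome 2, 13276338 to 13491813, minus strand) has 11262 bases in 67 exons. Amn (chromosome 12, 111271095 to 111276426, plus strand) has 1701 bases in 12 exons, and Soat2 (chromosome 15, 102150526 to 102163469, plus strand) 2208 bases in 15. Dab2 (chromosome 15, 6299788 to 6440712), Slc39a8 (chromosome 3, 135825279 to 135888572), Slc2a2 (chromosome 3, 28697903 to 28731359) and Npc1l1 (chromosome 11, 6211013 to 6230143) lie between these in length. Exons of Cubn overlap the opposite-strand gene Gm13270 over 368 bases and those of Dab2 overlap Gm18888 over 211, so reads there cannot be assigned to a strand with this kit. GGACT, the core of the sequence the writer complex prefers, occurred in these transcripts at 1.08 (Slc2a2) to 2.72 (Soat2) copies per kilobase, against a median of 1.05 over 13226 tested coding genes. Soat2 stood at the 96.6th percentile and Dab2 at the 81.4th, and the other 6 lay between the 51.6th and the 67.6th. The table holds read counts and no m6A measurement, so whether these copies are methylated was not measured.

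Total counts ran from 16108062 to 28698541 per library, so that 1 count equalled between 0.0359 and 0.059 CPM (counts scaled to library size and, by TMM, to library composition). Genes with a count numbered 21488 and 19603 in WT, against 21250 and 18346 in KO. The fewest were in KO replicate 2, the deepest library, and replicate 2 had fewer than replicate 1 in both groups. The part of this in the gaps between replicates was not tested. Pearson correlations of log2 CPM over the 15563 genes tested lay between 0.879 and 0.943, and KO replicate 2 stood farthest from the rest on the first principal component, at 109 against -77.8 to -5.49. The library labels were checked on Mettl14, with 34.0 and 31.6 CPM in WT, against 4.63 and 8.04 CPM in KO, although the embryos had been sorted by this same gene. The markers of visceral endoderm were not even within groups: 33 listed genes summed to 2117 and 4456 CPM in WT, against 1624 and 1541 CPM in KO. WT replicate 2 thus had the highest sum. Apoe, named here for its high level, alone gave 822 and 1568 CPM in WT, against 760 and 767 CPM in KO. Of the 29 markers tested, 25 had lower values in KO (median log2 fold change -1.58), against 52.3% of all genes tested. In whole embryos, fewer cells of a type and less RNA per cell cannot be told apart. Summed markers of epiblast overlapped between the groups (2760 to 2853 CPM in WT, 2137 to 3249 in KO), and those of extraembryonic ectoderm were 2514 to 2603 CPM in WT and 1699 to 2478 in KO. All comparisons below are KO against WT by the edgeR quasi-likelihood test, adjusted over all genes tested, with 2 embryos per group. No gene of the 15563 passed the adjusted threshold of 0.05 in either direction.

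The 8 uptake genes were chosen with earlier results of these data known, so the shares below describe them and are not a test. Of the 8, 7 had lower values in both KO embryos than in either WT embryo, against 18.8% of all genes tested, and Npc1l1 alone did not. The median log2 fold change of the 8 was -1.66, against -0.03 over all genes tested. Of the 8, 5 had an unadjusted p under 0.05 with lower values in KO, where 3.08% of all genes did. Of the 8, the same 7 had a log2 fold change below 0, against 52.3% of all genes. None passed after adjustment by edgeR (0% of all genes) or by limma-voom, and 3, namely Amn, Dab2 and Cubn, passed by DESeq2, which called 0.578% of all genes lower. With no low-count filter the same 3 passed by edgeR (0.398% of all genes lower), and with the replicate number as a block Amn alone did (0.122%). The size of the difference depended on 1 embryo: the median was -0.68 without WT replicate 2, with 7 of 8 still lower.

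**Figure D1:**
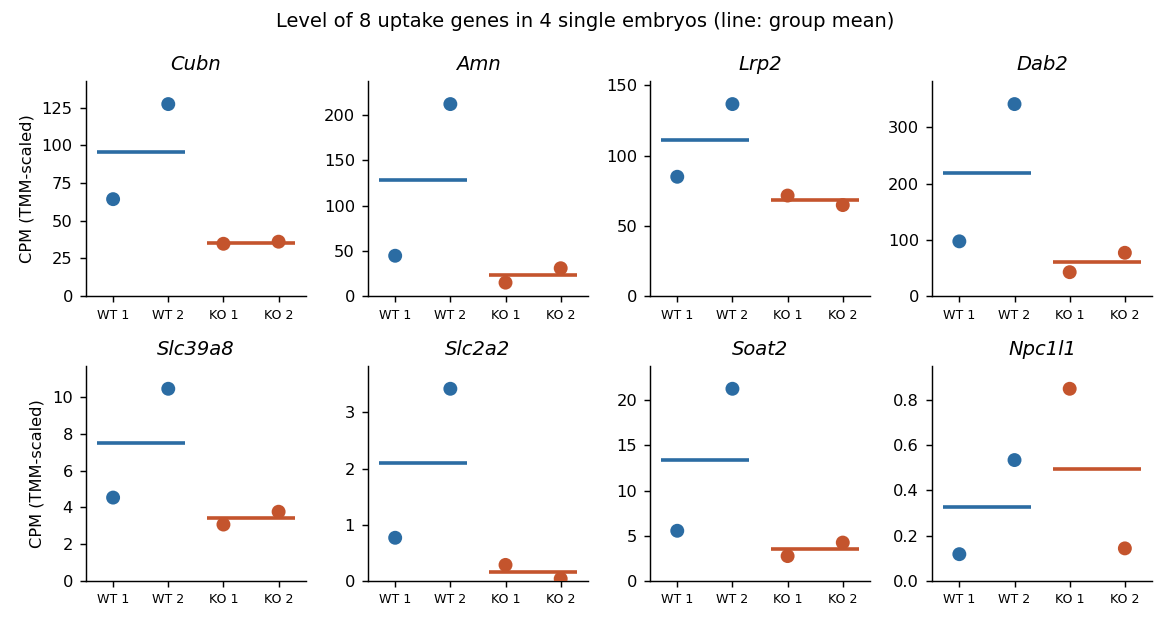
Each panel plots 1 gene, with the level in CPM on the vertical axis and the 4 embryos on the horizontal axis (blue WT, orange KO, 1 point per embryo, line at the group mean). WT replicate 2 is the highest embryo in every panel except that of Npc1l1, and for the other 7 genes both KO points lie below both WT points.

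Among the receptors, Cubn stood at 64.4 and 128 CPM in WT, against 34.7 and 36.1 CPM in KO. The KO embryos were close to each other and the lower WT embryo was 1.78-fold above the higher of them. The log2 fold change was -1.44 (SE 0.41, edgeR adjusted p = 0.437, DESeq2 adjusted p = 0.0481), and without WT replicate 2 it was -0.85. Amn, the partner that carries cubilin to the surface, stood at 44.6 and 212 CPM in WT, against 14.9 and 30.8 CPM in KO. The groups did not overlap, but the WT embryos differed from each other by 4.76-fold and the KO embryos by 2.07-fold, while WT replicate 1 was 1.95-fold above the KO mean. The log2 fold change of Amn was -2.49 (SE 0.71, edgeR adjusted p = 0.435, DESeq2 adjusted p = 0.00489). It stood at -0.96 without WT replicate 2, and at -3.18 without WT replicate 1 (edgeR adjusted p = 0.00192, where 0.157% of all genes were called lower).

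Lrp2 stood at 85.0 and 137 CPM in WT, against 71.6 and 64.8 CPM in KO. Its groups were separated by 1.19-fold at the nearest embryos. Megalin mRNA thus had the smallest difference of the 7 lower genes, a log2 fold change of -0.70 (SE 0.36, edgeR adjusted p = 0.728). Without WT replicate 2 it was -0.31.

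Dab2, the clathrin adaptor of these receptors, stood at 97.4 and 342 CPM in WT, against 42.6 and 77.0 CPM in KO. WT replicate 2 was 3.51-fold above WT replicate 1, and WT replicate 1 was 1.26-fold above KO replicate 2, the nearest KO embryo. The log2 fold change was -1.88 (SE 0.58, edgeR adjusted p = 0.488, DESeq2 adjusted p = 0.031). Without WT replicate 2 it was -0.69, and without WT replicate 1 it was -2.48. Dab2 is also a gene of parietal endoderm and trophoblast. The 12 parietal endoderm markers summed to 423 and 1062 CPM in WT, against 682 and 621 CPM in KO, none of them at 0 in all 4 embryos, and the 11 giant cell and ectoplacental cone markers to 377 and 578 CPM in WT, against 1838 and 1045 CPM in KO, with Prl2c2, Prl3b1, Tpbpa and Ctsq at 0 in all 4 embryos. Their part in the level of Dab2 was not tested.

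The transport and storage genes gave fewer reads. Soat2, which esterifies cholesterol, stood at 5.54 and 21.3 CPM in WT, against 2.74 and 4.23 CPM in KO. The lower WT embryo was 1.31-fold above the higher KO embryo, and the log2 fold change was -1.94 (SE 0.69, edgeR adjusted p = 0.532; -0.66 without WT replicate 2). Slc39a8, the zinc and manganese importer, stood at 4.54 and 10.5 CPM in WT, against 3.07 and 3.77 CPM in KO. Its log2 fold change was -1.13 (SE 0.62, edgeR adjusted p = 0.753; -0.40 without WT replicate 2), with the nearest embryos of the groups 1.20-fold apart.

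Slc2a2, the glucose carrier, gave 13 and 64 reads in WT, against 6 and 1 in KO, or 0.766, 3.42, 0.283 and 0.0359 CPM. Both groups were low, and WT replicate 2 held most of the reads. The log2 fold change was -3.71 (SE 1.42, edgeR adjusted p = 0.574), and it ran from -5.58 to -2.24 when 1 embryo was left out. Npc1l1, the cholesterol importer, gave 2 and 10 reads in WT, against 18 and 4 in KO, or 0.118, 0.534, 0.85 and 0.144 CPM. The groups overlapped, and the highest and the lowest embryo were KO replicate 1 and WT replicate 1. The log2 fold change was 0.58 with an SE of 1.63 (edgeR adjusted p = 0.976), and it was -1.08 without KO replicate 1 and -0.14 without WT replicate 1. No direction can be read for Npc1l1 at this depth.

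**Figure D2:**
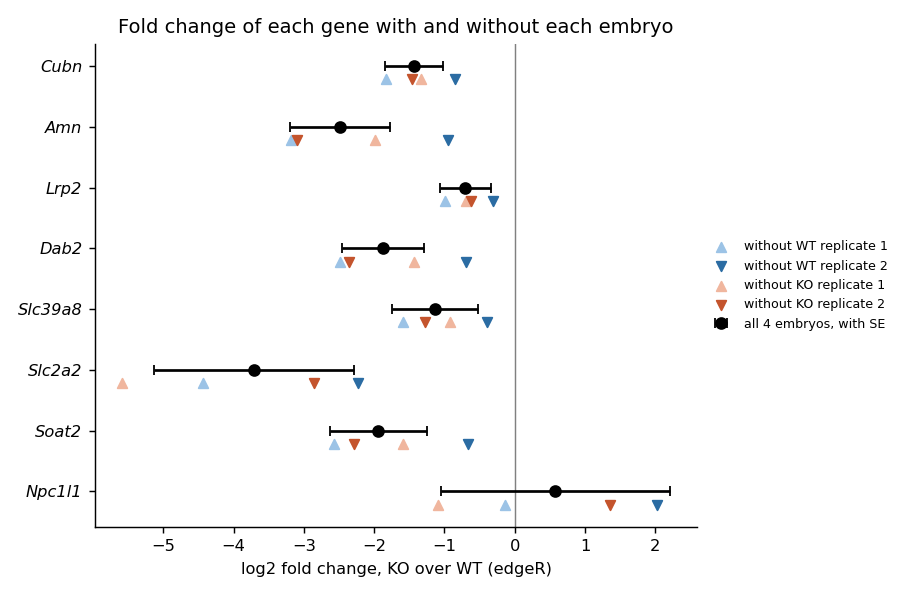
The horizontal axis is the log2 fold change of KO over WT by edgeR, with 1 line per gene: black points and bars give the fit to all 4 embryos with its SE, and triangles the fits without 1 embryo. For the 7 lower genes the fit without WT replicate 2 (dark blue) lies nearest to 0, from -2.24 for Slc2a2 to -0.31 for Lrp2, and Npc1l1 lies on both sides of 0.

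As a fold of CPM, the gap between the control embryos was wider than that between WT replicate 1 and the KO mean for 6 of the 7 genes with separated groups. For Slc2a2 the second of these folds was slightly the wider. All 8 genes were more than 1.5-fold higher in WT replicate 2 than in WT replicate 1, from 1.61-fold for Lrp2 to 4.76-fold for Amn, where 21.8% of all genes tested were. Between the KO embryos 3 of the 8, Amn, Dab2 and Soat2, were more than 1.5-fold higher in replicate 2 than in replicate 1, where 21.3% of all genes were. Embryo by embryo, the median difference of the 8 genes in log2 CPM was -0.94 for KO replicate 1 and -0.39 for KO replicate 2 against WT replicate 1. Against WT replicate 2 these medians were -2.39 and -1.98. Of 8 genes, 7 were lower in 3 of these 4 pairings and all 8 in the pairing of KO replicate 2 with WT replicate 2, while 47.1% to 54.5% of all genes were lower.

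**Figure D3:**
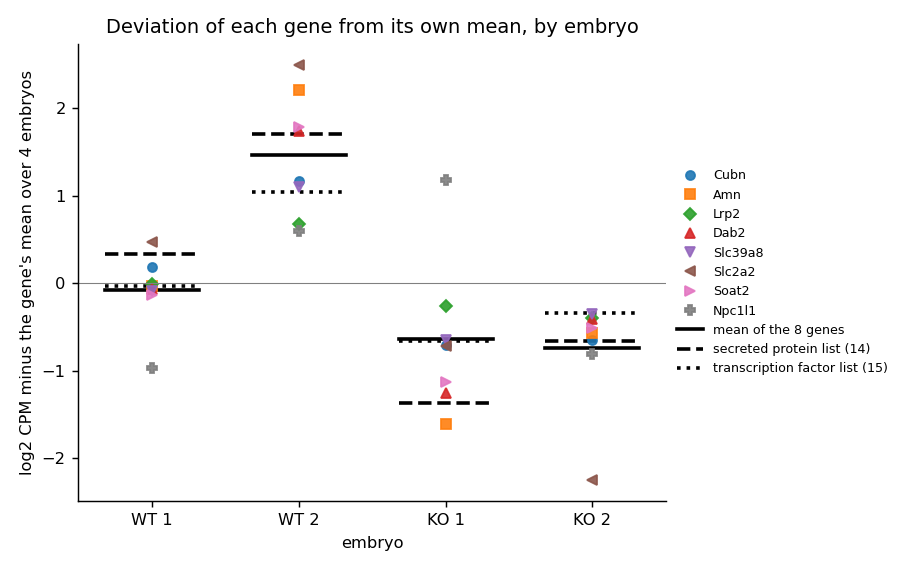
The vertical axis gives log2 CPM minus each gene's own mean over the 4 embryos, and the horizontal axis the embryos. Symbols are the 8 genes and short black lines the mean of the 8 (solid), of 14 tested visceral endoderm secreted protein genes (dashed) and of 15 visceral endoderm transcription factor genes (dotted); all 3 means are highest in WT replicate 2, at 1.47, 1.70 and 1.04.

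Levels were compared between genes as CPM per kilobase of exon. By the union of exons, Amn was the highest of the 8 in every embryo and Dab2 the next, at 69.6 ± 64.3 and 29.9 ± 23.5 CPM per kilobase in WT and 12.4 ± 6.11 and 8.15 ± 3.32 in KO (SD, n = 2). Lrp2, Cubn and Soat2 followed at 6.64 ± 2.19, 6.42 ± 2.99 and 6.06 ± 5.03 in WT, and these 3 did not differ beyond their spread there. In KO they stood at 4.08 ± 0.287, 2.37 ± 0.0655 and 1.58 ± 0.478, in the same order in both embryos. Slc39a8 lay at 0.979 ± 0.548 in WT and 0.446 ± 0.0645 in KO. Slc2a2 (0.364 ± 0.326 in WT) and Npc1l1 (0.073 ± 0.0659) were the lowest pair in every embryo, and Npc1l1 was above Slc2a2 in both KO embryos. The ranges of Amn and Dab2 overlapped within each group. By the length of the longest transcript Dab2 stood at 47.1 ± 37.0 CPM per kilobase in WT (SD, n = 2), and in KO replicate 1 it was above Amn, at 9.13 against 8.74, while Amn stayed above Dab2 in the other 3 embryos. By that length the WT mean of Cubn, 8.52, was also above that of Lrp2, 7.17.

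Within embryos the genes did not keep fixed proportions. The ratio of Amn to Lrp2 per kilobase was 4.75 and 14.1 in WT, against 1.88 and 4.31 in KO. The groups did not overlap, but WT replicate 1 and KO replicate 2 were close, and an exact two-sided permutation test gave p = 0.333, the smallest that 2 against 2 embryos allow. The ratio of Lrp2 to Cubn was 1.18 and 0.959 in WT, against 1.84 and 1.60 in KO, also without overlap (exact permutation p = 0.333). The ratio of Amn to Cubn, the subunits of 1 receptor, was 5.61 and 13.5 in WT, against 3.47 and 6.90 in KO, and here the groups overlapped (exact permutation p = 0.667). That of Dab2 to Cubn was 3.08 and 5.45 in WT, against 2.49 and 4.34 in KO, again with overlap. Of 6 such ratios computed, 3 had separated groups, the third being Dab2 to Amn (0.549 and 0.404 in WT, 0.719 and 0.628 in KO), and no test in this family could pass an adjusted threshold. Levels of long transcripts as a class were uneven across the libraries. Over 318 tested genes with a longest transcript above 10 kilobases, the median log2 difference from WT replicate 1 was -0.64 in WT replicate 2, -0.04 in KO replicate 1 and -0.78 in KO replicate 2. Over 6224 genes below 2.5 kilobases it was 0.15, 0.00 and 0.18. Lrp2 and Cubn belong to the first class and Amn and Soat2 to the second, and the ratio of Amn to each long gene was higher in replicate 2 than in replicate 1 of both groups. For KO replicate 2 against WT replicate 1 the log2 difference was -0.83 for Cubn and -0.39 for Lrp2, beside the median of -0.78 over long genes. In the fit to all 4 embryos the median log2 fold change of the long genes was -0.11. The part of transcript length in these ratios, and in the differences of Cubn and Lrp2 between the groups, was not tested.

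**Figure D4:**
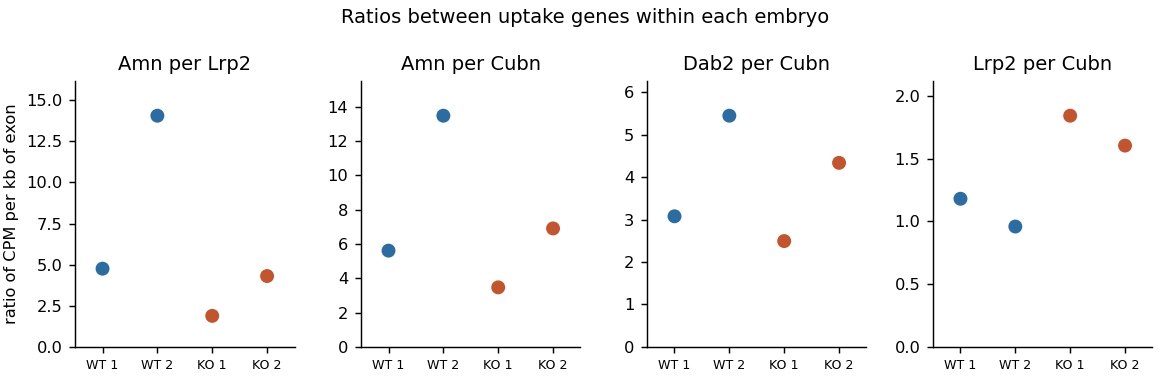
Each panel plots the ratio of CPM per kilobase of exon between 2 genes (vertical axis) in each of the 4 embryos (horizontal axis; blue WT, orange KO). Amn to Lrp2 and Lrp2 to Cubn have separated groups, and Amn to Cubn and Dab2 to Cubn overlap, with WT replicate 1 at 5.61 and 3.08 below KO replicate 2 at 6.90 and 4.34.

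The uptake genes were set beside other genes of visceral endoderm. Of 14 tested genes for its secreted proteins, 14 had lower values in KO, with a median log2 fold change of -2.33, and 13 had both KO embryos below both WT embryos, against 52.3% and 18.8% of all genes tested. The smallest unadjusted p in the list belonged to Mttp, the lipid transfer protein of lipoprotein assembly (-2.75, SE 0.53), and Apob, its acceptor (-2.64, SE 0.52). Of 15 transcription factor genes 11 had lower values (median -1.34) and 9 were separated. Lhx1, a LIM homeobox factor that the later streak uses too, differed by -2.56 (SE 0.51), and Hnf4a, the nuclear receptor of visceral endoderm and liver, had 4.36 and 15.7 CPM in WT, against 2.79 and 1.61 in KO. Several in that list, among them Otx2, Eomes and Klf5, are also expressed in epiblast or trophoblast. No gene of either list passed by edgeR, and 7 and 1 were lower by DESeq2, against 0.578% of all genes. Measured against the mean log2 CPM of the secreted protein list, 6 of the 8 uptake genes were higher in KO (median difference 0.53). Measured against the transcription factor list, 5 of the 8 were lower (median -0.49). The median of the uptake genes thus lay between both lists, and the sign of this median difference depended on the list taken. Gene by gene, only Cubn, Dab2 and Soat2 changed sign with the list. Slc39a8 stood at 1.03 against the secreted proteins, without overlap, and at 0.01 against the factors, with overlap. For Amn and Slc2a2 the mean difference was -0.15 and -0.94 against the secreted proteins, where the groups overlapped, and -1.17 and -1.96 against the factors, where they did not. For Lrp2 and Npc1l1 it was 1.37 and 2.41 against the secreted proteins, without overlap, and 0.35 and 1.38 against the factors, with overlap; Npc1l1 rests on few counts.

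Other genes of the same pathways had values in both directions. Among other endocytic receptors and their partners, 11 of 16 tested had lower values in KO (median -0.11). Fcgrt, the neonatal Fc receptor that carries IgG and albumin, stood at 9.14 and 28.7 CPM in WT, against 6.66 and 4.88 CPM in KO (log2 fold change -1.71, SE 0.61). Lrp4, a relative of megalin that dampens WNT signals, stood at 5.01 and 4.33 CPM in WT, against 1.84 and 1.22 CPM in KO (-1.61, SE 0.68). Lrpap1, the chaperone of megalin, differed by 0.11 (SE 0.42) and was added to these 2 after its values were seen. Of the clathrin coat and adaptors 12 of 20 had lower values (median -0.05). Myo6, the motor that moves clathrin vesicles inward from microvilli and binds Dab2, stood at 21.3 and 46.4 CPM in WT, against 11.1 and 13.6 CPM in KO (-1.45, SE 0.48), and Synj1, a phosphatase of vesicle uncoating, differed by -0.97 (SE 0.52).

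In the endosome and lysosome list 15 of 25 had lower values (median -0.16). Ehd1, an ATPase of recycling endosomes, stood at 60.0 and 101 CPM in WT, against 148 and 170 CPM in KO (0.98, SE 0.36). Snx5, a sorting nexin, stood at 370 and 400 CPM in WT, against 233 and 228 CPM in KO (-0.74, SE 0.27). The groups of both genes were separated, in opposite directions. The coat, adaptor, endosome and lysosome genes serve all cells of the embryo, and the medians of their lists compare with -0.03 over all genes.

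In the zinc list, which holds transporters and the metallothionein genes Mt1 and Mt2, 11 of 20 tested genes had higher and 9 lower values (median 0.07). Slc39a5, a zinc importer of gut and visceral endoderm, stood at 3.60 and 12.1 CPM in WT, against 0.944 and 1.44 CPM in KO (-2.71, SE 0.77). Slc30a1, the zinc exporter of the plasma membrane, stood at 12.4 and 10.7 CPM in WT, against 28.2 and 30.1 CPM in KO (1.34, SE 0.39). Of the 7 hexose transporters tested 5 had higher values (median 0.86), but these reached at most 15.6 CPM in any embryo. The genes with the highest levels were the lower ones. Slc2a3, the high-affinity glucose carrier, stood at 82.1 and 171 CPM in WT, against 69.3 and 56.1 CPM in KO (-1.01, SE 0.42). Slc2a1, added for its level after its values were seen, stood at 377 and 517 CPM in WT, against 402 and 377 CPM in KO (-0.20, SE 0.29), with overlap. Slc2a12 had at most 1.94 CPM in any embryo (2.78, SE 1.69). In the list for uptake and esterification of sterols 10 of 16 had lower values (median -0.13). Stard4, a sterol carrier between membranes, stood at 55.9 and 75.3 CPM in WT, against 16.3 and 18.2 CPM in KO (-1.93, SE 0.37), and Dgat2, which makes triglyceride, differed by -1.16 (SE 0.62). Soat1, the widely expressed counterpart of Soat2, stood at 79.9 and 91.8 CPM in WT, against 125 and 88.3 CPM in KO (0.32, SE 0.34), chosen for its kinship to Soat2 after its values were seen. No gene in these 6 lists passed by edgeR, and Stard4 alone passed by DESeq2.

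The genes most like the uptake genes in pattern were found by the root mean square difference between centred log2 CPM profiles over the 4 embryos, among 9226 named coding genes with a mean of at least 5 CPM. The nearest 6 included Fcgrt, Cited1, Dpp4, Ctsh and Gata6, and the 6 lay at 0.134 to 0.182, against a median of 0.925 over these genes. Cited1, a transcriptional coregulator, stood at 85.8 and 306 CPM in WT, against 64.0 and 69.1 CPM in KO. Dpp4, a dipeptidase of apical membranes, stood at 10.6, 35.5, 7.65 and 5.67 CPM in the same order, and Ctsh, a lysosomal protease, at 41.4, 162, 27.5 and 26.8 CPM. Gata6 encodes a factor of visceral endoderm, and Fcgrt, Cited1 and Gata6 were also in the lists above. Of the 8 genes themselves Cubn lay nearest to their common mean, at 0.21, and Slc2a2 and Npc1l1 farthest, at 0.955 and 1.11.

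RNA of the mother was looked for, since the decidua surrounds the embryo. The 12 decidua markers summed to 32.7 and 39.7 CPM in WT and to 10.5 and 14.9 CPM in KO, with Hoxa11 at 0 in all 4 embryos, and 6 of 6 tested had lower values in KO. The 10 markers of adult kidney and gut, organs that use the same uptake genes, summed to 5.19 and 13.6 CPM in WT and to 4.15 and 2.30 CPM in KO, with Umod, Slc34a1 and Sis at 0. Only 3 of these 10 passed the count filter. Amn alone reached 14.9 to 212 CPM and Dab2 42.6 to 342 CPM, not scaled to length. Adult organs are not part of an embryo of this age, so low sums were fixed in advance. They cannot tell the source of the reads of the uptake genes.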

How the data were processed

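Gene expression was measured by polyadenylated RNA sequencing of 4 single embryos, 2 WT and 2 KO, after Smart-Seq v4 amplification, per the labels' protocols. The authors deposited whole-number read counts for each gene, not normalised. Per the submitters' processing notes, mm10 was the build and TopHat and Cufflinks were used, with no role or version; the counting program, strand setting and annotation were not given in the sources used here. Symbols, exons and coordinates came from GENCODE M21 on mm10, in which 46488 of 47885 rows were found. Promoters came from RefSeq (GRCm38.p6).

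Genes passing filterByExpr (minimum count 10, minimum total 15) were scaled by TMM and tested by edgeR 4.0.16 in R 4.3.3 (robust quasi-likelihood F test), adjusted by Benjamini and Hochberg over 15563 genes at 0.05. SE is the size of the log2 fold change over the root of F. Log2 CPM used a prior count of 2. DESeq2 1.42.0, limma-voom (3.58.1), other scalings and filters, a replicate block and leaving out each embryo were alternatives. The fits were tested on simulated data. The exact permutation p-values rest on the 4 embryos alone. Those of edgeR, DESeq2 and limma-voom combine the spread of a gene among the embryos fitted with spread shared over all genes. They therefore do not measure the gene's own spread alone. The fits without 1 embryo leave a group with a single embryo, so the spread there comes from the other group and from the values shared over genes. The members, lists and tests were chosen with earlier results of these data known. Genes named were every member, Mettl14, the 2 genes per list with the smallest unadjusted p, and the 6 genes nearest in pattern; exceptions are stated, and 1 of the 6 and 1 planned promoter motif are not reported here. A planned search of the proteins for tail motifs was not run, and proteins are not analysed here.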

Additional observations from a re-analysis of the deposited data

How the results depend on the processing

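Over all genes, edgeR called 0 higher and 0 lower, and 738 and 479 had an unadjusted p under 0.05. DESeq2 called 150 and 90, the fit with no low-count filter 157 and 101, and the fit with the replicate block 52 and 19; leaving out 1 embryo gave 14 to 133 higher and 1 to 209 lower. Limma-voom, RLE scaling, library totals and at least 50 counts in 2 libraries gave 0. The labels tie the embryos by number only, and over genes the gap of WT replicate 2 from replicate 1 had a correlation of 0.329 with the gap in KO; under the replicate block Amn passed at -2.19 (edgeR adjusted p = 0.0405) and no other uptake gene did.

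Cubn passed at -1.44 with DESeq2 and at -1.43 with no low-count filter, Amn at -2.48 in each, and Dab2 at -1.87 in each. Of 86 fold changes under 11 alternatives 75 kept their sign and their side of the threshold. Npc1l1 was reversed without WT replicate 1 (-0.14) or KO replicate 1 (-1.08), and Npc1l1 and Slc2a2 did not reach at least 50 counts in 2 libraries. Without 1 embryo the fold changes ran from -1.83 to -0.85 for Cubn, -3.18 to -0.96 for Amn, -2.48 to -0.69 for Dab2 and -1.08 to 2.03 for Npc1l1, and the median of the 8 from -2.15 to -0.68. The median relative to visceral endoderm markers was 0.53 with the secreted proteins and -0.49 with the factors. By its longest transcript, which is shorter than its union of exons, Slc39a8 stood at 2.12 CPM per kilobase in WT in place of 0.979. Depth limits Slc2a2 and Npc1l1, whose counts were at most 64 and 18.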
